A study of Neurospora crassa with 3 samples.

Results

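In 67 genes of the filamentous fungus Neurospora crassa, reads on the strand opposite to the gene were more abundant in both H3G34R libraries than in any of the other 4 libraries of the series. The 67 were taken from 7286 genes whose reads on either strand add up to the reads counted without regard to strand in all 6 libraries, out of 9730 genes counted. The 2444 genes left out include any whose reads overlap a gene on the other strand, where the origin of a read is ambiguous. Antisense reads were expressed as counts per 1000000 sense reads in genes (antisense CPM). A gene was a member when the lower of its H3G34R values was at least 1.5 CPM and at least 2 times the highest of the other 4 values. The antisense values therefore chose the genes, and they are given here as a description with no test. The sense counts of the same genes, and the counts of the genes beside them, were not used in the choice of the 67 and were tested.

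Histone H3 carries methyl groups on lysine 36, placed in this fungus by SET-2, which travels with RNA polymerase II, and by ASH1, which acts largely on genes with little transcription. Glycine 34 lies close to that lysine on the H3 tail, and arginine at this position is known from human brain tumours. In budding yeast, Set2-dependent methylation recruits a histone deacetylase that limits transcription starting inside genes, antisense transcription included. Long antisense RNA is well known in Neurospora from the clock gene frq, whose antisense transcript is called qrf.

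Polyadenylated RNA came from cultures shaken in Vogel's medium for 18 h at 32 °C, labelled germinated conidia by source and mycelia by tissue. H3G34R was represented by strains N5247 and N5248, with 1 library each and set-2 and ash1 not listed as altered. The genotype set-2 ash1(Y888F), strains N6266 and N6267, combines a set-2 deletion with a point change in ASH1. The genotype set-2 H3G34R, the single strain N6777 with libraries 1 and 2, combines the same H3 change with a set-2 deletion. No wild-type library was used here, and both genotypes set against H3G34R carry the set-2 deletion by their description. That deletion therefore cannot be told apart from the other differences between H3G34R and either genotype.

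The libraries held 7.52 to 9.83 M sense reads and 0.295 to 0.341 M antisense reads in genes (M, 1000000 reads), an antisense share of 3.08% to 3.78%. Reads on the sense strand of set-2 itself were present in every library, at 34.2 and 25.6 CPM in H3G34R, 20.3 and 16.4 CPM in set-2 ash1(Y888F) and 31.8 and 31.2 CPM in set-2 H3G34R. A deletion of the whole gene would leave none, so the genotypes are named here by their labels. The hyphal marker hex-1, which encodes the Woronin body protein, lay between 3319 and 5030 sense CPM in all 6 libraries. Conidial markers were present in every library and differed between genotypes. The hydrophobin gene eas had 7.97 and 21.0 CPM in H3G34R, 72.0 and 22.3 in set-2 ash1(Y888F) and 173 and 680 in set-2 H3G34R. The gene con-8 had 35.6 and 61.4 CPM in H3G34R, 48.9 and 174 in set-2 ash1(Y888F) and 251 and 339 in set-2 H3G34R. The gene con-10 had 53.5 and 47.0 CPM in H3G34R, 2.85 and 12.1 in set-2 ash1(Y888F) and 80.1 and 188 in set-2 H3G34R, while con-6 lay between 51.5 and 94.1 CPM in all 6. The libraries of set-2 H3G34R were thus the highest for eas, con-8 and con-10, and H3G34R had the lowest eas values. Of the genes taken as sexual tissue markers, ccg-4 had 97.0 and 94.6 CPM in H3G34R against 4.52 to 8.31 CPM in the other 4 libraries. The other, per-1, had 61.1 and 58.0 CPM in H3G34R against 3.32 to 11.4 CPM. Both genes were higher in H3G34R, which does not by itself show sexual tissue, and mating type was not considered here. The part of either marker set in the results below was not tested.

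The members' antisense reads together made up 3.54% and 3.40% of all antisense reads in the H3G34R libraries. The share was 0.499% and 0.654% in set-2 ash1(Y888F) and 0.391% and 0.549% in set-2 H3G34R. The antisense share over all genes was 3.08% and 3.15% in H3G34R, 3.68% and 3.78% in set-2 ash1(Y888F) and 3.49% and 3.46% in set-2 H3G34R. The lower H3G34R value had a median of 2.97 CPM over members and ran from 1.63 to 394 CPM. It reached 10 CPM in 11 members and stayed under 3 CPM in 35. In these bulk cultures, more RNA per cell and more cells with the RNA cannot be told apart. No member had fewer than 16 antisense reads in an H3G34R library.

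The excess over the highest of the other 4 libraries had a median of 3.40-fold and ran from 2.03-fold to 21.1-fold. The highest of those 4 values came from set-2 ash1(Y888F) for 37 members, from set-2 H3G34R for 30. In 18 members at least 1 of the other 4 libraries held no antisense read, and in 0 members all 4 were empty. A count of 0 in those libraries allows up to 0.319 to 0.399 CPM, taking 3 counts as the limit. The H3G34R strains lay close together: the higher of their values exceeded the lower by a median of 1.21 times, and by at most 1.92 times, in NCU01371. In 57 of the 67 members the strains lay within 1.5 times of each other. The rule asks both strains to be high, so this closeness follows partly from the choice.

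**Figure D1:**
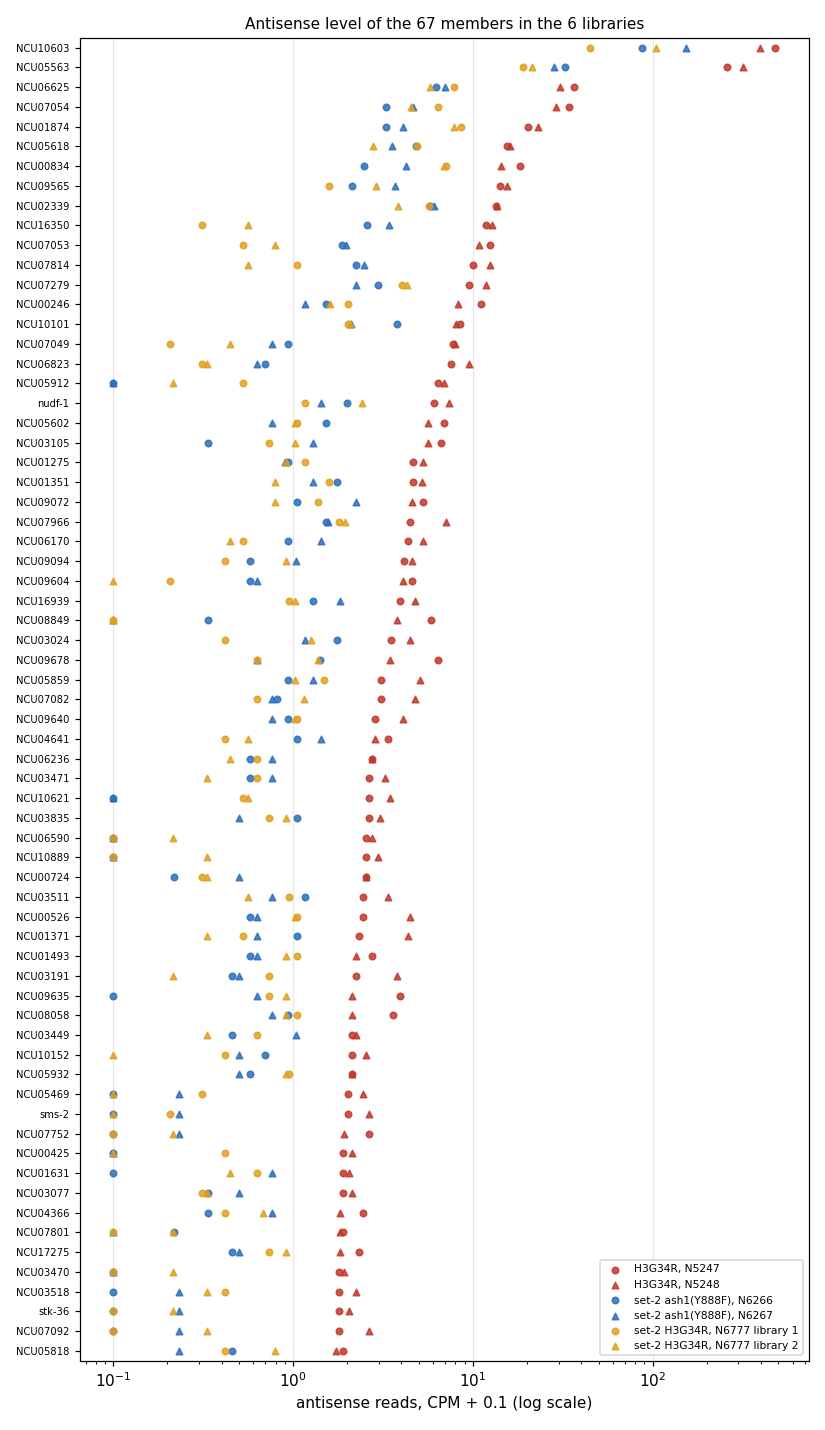
Antisense level (CPM + 0.1, log scale) of each of the 67 members, one per line, with a point for each of the 6 libraries coloured by genotype. In every line both H3G34R points lie to the right of the other 4, as the rule requires. The lower H3G34R value runs from 1.63 to 394 CPM.

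Membership at the edges was close. The smallest excesses inside the rule were 2.03-fold for NCU00834, 2.05-fold for NCU03024 and 2.07-fold for NCU04641, and just outside lay NCU08757 at 2.00-fold, NCU07193 at 1.95-fold and NCU01987 at 1.92-fold. At the level limit, NCU05818 was inside at 1.63 CPM with NCU03470 and NCU03518 at 1.70 CPM each. Just outside were NCU00717 and pls-1 at 1.49 CPM and NCU03078 at 1.42 CPM. With N5247 left out the rule took 117 genes, and with N5248 left out 103. Leaving out a library can only loosen the rule, so the 67 are among them by construction.

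The antisense reads were concentrated in a pair of genes. NCU10603 and NCU05563 held 65.1% of the members' antisense reads in H3G34R. NCU10603 had 482 and 394 antisense CPM in H3G34R, 87.7 and 152 in set-2 ash1(Y888F) and 44.6 and 104 in set-2 H3G34R. NCU05563 had 258 and 318 antisense CPM in H3G34R, 32.5 and 28.2 in set-2 ash1(Y888F) and 18.9 and 21.2 in set-2 H3G34R. The H3G34R libraries were the highest at both genes, and the other 4 libraries lay farther apart at NCU10603 than at NCU05563. Sense reads of both genes were scarce everywhere, with 16 and 23 reads for NCU05563 and 12 and 4 reads for NCU10603 in the H3G34R libraries, so RNA from these places was nearly all antisense to the annotated gene in all 3 genotypes.

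The next 8 members by antisense level were NCU06625, NCU07054, NCU01874, NCU05618, NCU00834, NCU09565, NCU02339 and NCU16350. NCU07054 had 34.3 and 28.8 antisense CPM in H3G34R, 3.20 and 4.52 in set-2 ash1(Y888F) and 6.27 and 4.41 in set-2 H3G34R, with at most 0.425 sense CPM in any library. NCU01874 had 20.1 and 23.0 antisense CPM in H3G34R, 3.20 and 3.99 in set-2 ash1(Y888F) and 8.5 and 7.77 in set-2 H3G34R. Its neighbour NCU16350 had 11.8 and 12.7 antisense CPM in H3G34R, 2.49 and 3.32 in set-2 ash1(Y888F) and 0.212 and 0.464 in set-2 H3G34R. The set-2 genotypes were thus in opposite order at these adjacent genes, with set-2 H3G34R the higher of the pair at NCU01874 and the lower at NCU16350. Adjacent members numbered 4 pairs in all: NCU01874 and NCU16350, NCU03471 and NCU03470, NCU03511 and NCU10152, and NCU07054 and NCU07053. Members of a pair may share transcripts and are not independent.

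In 32 of the 67 members antisense reads outnumbered sense reads in both H3G34R libraries. Pooled over these genes, antisense reads were 96.3% of the reads on both strands in H3G34R, against 70.9% for set-2 ash1(Y888F), with 56.2% for set-2 H3G34R. In 13 of the 32, antisense reads were the majority in all 6 libraries, as at NCU10603, NCU05563 and NCU07054. In 12 others the majority strand differed, with antisense above sense in both H3G34R libraries and sense above antisense in all of the other 4. The remaining 7 were mixed. These divisions use the antisense and the sense counts of the same libraries and describe them only.

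The 12 genes with the other strand on top were NCU06625, NCU09565, NCU00246, NCU10101, NCU03105, NCU01275, NCU01351, NCU05859, NCU05932, NCU17275, NCU03470 and NCU05818. Not all were clear changes of strand. NCU03470 had only 1 or 2 sense and 0 or 1 antisense reads in each of the other 4 libraries. At NCU01351, N6777 library 1 held 15 sense and 14 antisense reads. NCU06625 had 36.3 and 30.4 antisense CPM in H3G34R, 6.17 and 6.92 in set-2 ash1(Y888F) and 7.75 and 5.68 in set-2 H3G34R. Its sense level was 1.06 and 0.407 CPM in H3G34R, 12.5 and 9.31 in set-2 ash1(Y888F) and 16.5 and 14.0 in set-2 H3G34R. On the sense strand the H3G34R libraries were the lowest of the 6, with no overlap with either other genotype.

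The sense difference of NCU06625, H3G34R minus set-2 ash1(Y888F), was -4.17 on the log2 scale (SE 0.389), with an adjusted p of 3.34e-04 (quasi-likelihood test of edgeR, Benjamini-Hochberg). Against set-2 H3G34R it was -4.41 (SE 0.380, edgeR adjusted p = 1.84e-04). These differences, and those below, are on the scale of edgeR's TMM normalisation. The CPM values use raw sums of sense reads, which put H3G34R higher by 0.29 on the log2 scale relative to set-2 ash1(Y888F) and by 0.054 relative to set-2 H3G34R than TMM does.

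NCU10101 had 8.39 and 7.93 antisense CPM in H3G34R, 3.68 and 1.99 in set-2 ash1(Y888F) and 1.91 and 1.97 in set-2 H3G34R. On its sense strand only 1 read was counted over both H3G34R libraries, against 138 for set-2 ash1(Y888F), with 133 for set-2 H3G34R. The pooled sense level of H3G34R was 0.00600 times that of set-2 ash1(Y888F) (95% exact interval 0.000151 to 0.0340, counting error only) and 0.00705 times that of set-2 H3G34R (0.000177 to 0.0399). Both sense differences passed the test (edgeR adjusted p = 1.15e-04 and 1.26e-04).

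NCU09565 had 14.1 and 15.4 antisense CPM in H3G34R, 2.02 and 3.59 in set-2 ash1(Y888F) and 1.49 and 2.78 in set-2 H3G34R. On the sense strand it had 4.78 and 4.27 CPM in H3G34R, 16.7 and 15.4 in set-2 ash1(Y888F) and 24.5 and 18.4 in set-2 H3G34R. Sense RNA was lower in H3G34R, with log2 differences of -2.12 (SE 0.216) against set-2 ash1(Y888F) and -2.30 (SE 0.213) against set-2 H3G34R, and edgeR adjusted p = 4.72e-04 and 2.27e-04.

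NCU03105 and NCU01275 had the same pattern at lower levels. NCU03105 had 6.59 and 5.49 antisense CPM in H3G34R, 0.237 and 1.20 in set-2 ash1(Y888F) and 0.637 and 0.928 in set-2 H3G34R. Sense RNA stood at 3.19 and 3.76 CPM in H3G34R, 14.0 and 11.2 in set-2 ash1(Y888F) and 18.2 and 16.4 in set-2 H3G34R, a difference of -2.14 and -2.36 on the log2 scale. NCU01275 had 4.57 and 5.19 antisense CPM in H3G34R, 0.831 and 0.798 in set-2 ash1(Y888F) and 1.06 and 0.812 in set-2 H3G34R. The sense strand held 1.59 and 2.34 CPM in H3G34R, 7.0 and 11.4 in set-2 ash1(Y888F) and 14.0 and 15.0 in set-2 H3G34R, a difference of -2.50 and -2.92. All 4 of these sense differences passed the test, with edgeR adjusted p between 2.62e-04 and 0.00134.

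Not all 12 had lower sense RNA in H3G34R. Of the 11 that had enough reads to be tested, 7 fell in H3G34R against set-2 ash1(Y888F), 0 rose and 4 did not pass, where 26.3% of all genes tested fell and 25.5% rose. Against set-2 H3G34R, 7 fell, 0 rose and 4 did not pass, where 30.7% of all genes fell and 31.1% rose, and both comparisons share the H3G34R libraries. The median sense difference was -1.95 and -2.30. Being on this list requires few sense reads in H3G34R and more in the others, so these counts follow partly from the choice. The same holds for the sense tests of the single genes named from it. NCU00246 had 11 and 8.14 antisense CPM in H3G34R against 1.06 to 1.91 in the other 4 libraries. Its sense differences were 0.10 (SE 0.364, edgeR adjusted p = 0.836) and -0.64 (SE 0.329, adjusted p = 0.134). In NCU05859 and NCU05932 leaving out N5247, N5248 or N6266 ended the call of the set-2 ash1(Y888F) comparison, and in NCU05818 leaving out any one of the 6 libraries ended the call of the set-2 H3G34R comparison.

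**Figure D2:**
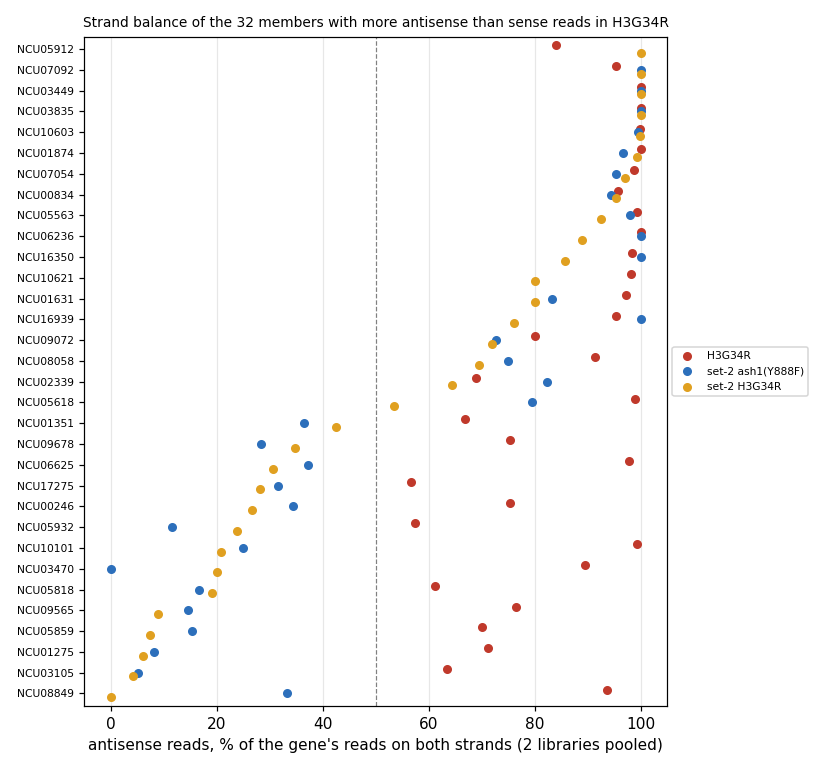
Antisense reads as a percentage of the gene's reads on both strands (libraries of a genotype pooled) in the 32 members with more antisense than sense reads in both H3G34R libraries. Each line is a gene with 1 point for each genotype. H3G34R points lie right of the dashed line at equal strands by construction, those of the set-2 genotypes range across the axis, and a genotype with no read on either strand has no point. The pooled share was 96.3% in H3G34R, against 70.9% for set-2 ash1(Y888F), with 56.2% for set-2 H3G34R.

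Over all 67 members the sense strand moved in both directions. Of 8561 genes tested, 25.5% rose and 26.3% fell in H3G34R against set-2 ash1(Y888F), and 52 members were among those tested. The other 15 members had too few sense reads and all belonged to the 32 with more antisense than sense. Of the 52, 36 differed in either direction, where 51.8% of all genes did: 21 rose, 15 fell and 16 did not pass, with a median difference of 0.43 on the log2 scale against 0.0014 over all genes tested. Against set-2 H3G34R, where 61.7% of all genes differed, 31.1% rising and 30.7% falling, 36 of the 52 members differed: 19 of the 52 rose, 17 fell and 16 did not pass, with a median of 0.69 against 0.011. The members' share that fell, 28.8% and 32.7%, was near that of all genes, and the share that rose was 40.4% and 36.5%. Without the 8 members described next, 13 and 12 rose of 44 tested (29.5% and 27.3%).

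In 8 members antisense reads were under 1% of sense reads in H3G34R: NCU06590, NCU00425, NCU05469, sms-2, NCU09604, stk-36, NCU07082 and NCU09635. Their pooled antisense reads were 0.470% of reads on both strands in H3G34R, against 0.833% for set-2 ash1(Y888F), with 0.389% for set-2 H3G34R. For comparison, the median gene with at least 100 sense CPM had 0.420 and 0.487 antisense reads per 100 sense reads in the H3G34R libraries, 0.826 and 0.786 in set-2 ash1(Y888F) and 0.349 and 0.344 in set-2 H3G34R. The limit of 1% set the H3G34R ratio of these 8 members, so its closeness to the median gene follows partly from the choice. How many of them are copies of sense RNA read on the wrong strand was not tested. All 8 rose on the sense strand against set-2 ash1(Y888F) and 7 against set-2 H3G34R, where 25.5% and 31.1% of all genes rose. Their medians were 6.03 and 5.04 on the log2 scale, though the choice of genes with abundant sense reads in H3G34R favours a rise.

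The member sms-2 encodes an Argonaute protein of meiotic silencing, which acts in the sexual phase on DNA that lacks a paired partner. It had 1.91 and 2.54 antisense CPM in H3G34R, 0 and 0.133 in set-2 ash1(Y888F) and 0.106 and 0 in set-2 H3G34R. In sense reads it had 561 and 591 CPM in H3G34R, 4.63 and 3.86 in set-2 ash1(Y888F) and 15.2 and 17.0 in set-2 H3G34R, so the groups were far apart. The difference was 6.79 (SE 0.171) against set-2 ash1(Y888F) and 5.11 (SE 0.151) against set-2 H3G34R, with edgeR adjusted p = 6.19e-06 and 7.11e-06. The genes ccg-4 and per-1 were also higher in H3G34R, with the values given above.

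Of the 9 RNA interference genes matched among 11 symbols looked for, sms-2 included, 4 rose, 3 fell and 2 did not pass against set-2 ash1(Y888F). Against set-2 H3G34R 3 rose, 3 fell and 3 did not pass. Over all genes tested, 51.8% and 61.7% differed in either direction. The quelling genes qde-1, an RNA-dependent RNA polymerase, and qde-3, a RecQ helicase, rose by 1.29 and 1.40 on the log2 scale against set-2 ash1(Y888F) and by 0.44 and 1.48 against set-2 H3G34R. The quelling Argonaute gene qde-2 had differences of -1.20 and -1.14 and the Dicer gene dcl-1 differences of -0.62 and -1.19, all past the test. Of the list, only sms-2 met the rule for antisense reads.

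Of 10 symbols for histone H3, histone methyltransferases and histone deacetylases, 9 were matched. They include set-1 and set-7, which are not H3K36 enzymes and rose in both comparisons. Against set-2 ash1(Y888F), 5 of the 9 rose, 1 fell and 3 did not pass. Against set-2 H3G34R, 6 rose, 1 fell and 2 did not pass. Of all genes tested, 51.8% and 61.7% differed in either direction. With a minimum of 1.5-fold, 2 and 3 rose and 0 fell in either comparison. The histone deacetylase gene hda-1 had sense levels of 92.2 and 82.5 CPM in H3G34R, 36.4 and 36.3 in set-2 ash1(Y888F) and 31.8 and 35.7 in set-2 H3G34R. The gene set-3 (NCU01932), which encodes ASH1, had 164 and 157 sense CPM in H3G34R, 80.2 and 80.7 in set-2 ash1(Y888F) and 75.3 and 73.9 in set-2 H3G34R. Its antisense level was highest in another genotype, at 1.38 and 2.44 CPM in H3G34R, 7.36 and 9.04 in set-2 ash1(Y888F) and 0.531 and 0.696 in set-2 H3G34R. Against set-2 ash1(Y888F) the 5 that rose became 3 when either H3G34R library or either set-2 H3G34R library was left out. The 1 that fell, hda-4, was lost without either H3G34R library. None of these genes was a member.

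NCU00425 had the largest sense difference of any member against set-2 ash1(Y888F). Its sense level was 805 and 868 CPM in H3G34R, 0.712 and 1.60 in set-2 ash1(Y888F) and 4.35 and 3.94 in set-2 H3G34R, with differences of 9.22 (SE 0.266) and 7.60 (SE 0.232). NCU06590 had the largest antisense excess, with 2.44 and 2.64 antisense CPM in H3G34R, no read in N6266 or N6267, and 0 and 0.116 CPM in set-2 H3G34R. On the sense strand it had 795 and 750 CPM in H3G34R, 3.44 and 3.06 in set-2 ash1(Y888F) and 1.27 and 0.696 in set-2 H3G34R, with differences of 7.59 (SE 0.199) and 9.52 (SE 0.225). At both genes the strands changed together, and all 4 sense differences had edgeR adjusted p of at most 7.37e-06.

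The kinase gene stk-36 had 1.70 and 1.93 antisense CPM in H3G34R, 0 and 0.133 in set-2 ash1(Y888F) and 0 and 0.116 in set-2 H3G34R. Sense RNA stood at 250 and 263 CPM in H3G34R, 4.98 and 5.85 in set-2 ash1(Y888F) and 5.10 and 6.38 in set-2 H3G34R, with differences of 5.28 (SE 0.160) and 5.43 (SE 0.159, edgeR adjusted p = 7.11e-06). NCU05469 and NCU09604 were likewise higher on the sense strand, by 7.69 and 4.14 against set-2 ash1(Y888F) and by 4.98 and 4.90 against set-2 H3G34R. NCU09635 stood apart in the spread of its H3G34R libraries, with 1211 and 592 sense CPM, against 40.1 and 151 in set-2 ash1(Y888F) and 362 and 382 in set-2 H3G34R. Its difference of 1.22 (SE 0.567) against set-2 H3G34R did not pass the test (edgeR adjusted p = 0.103).

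**Figure D3:**
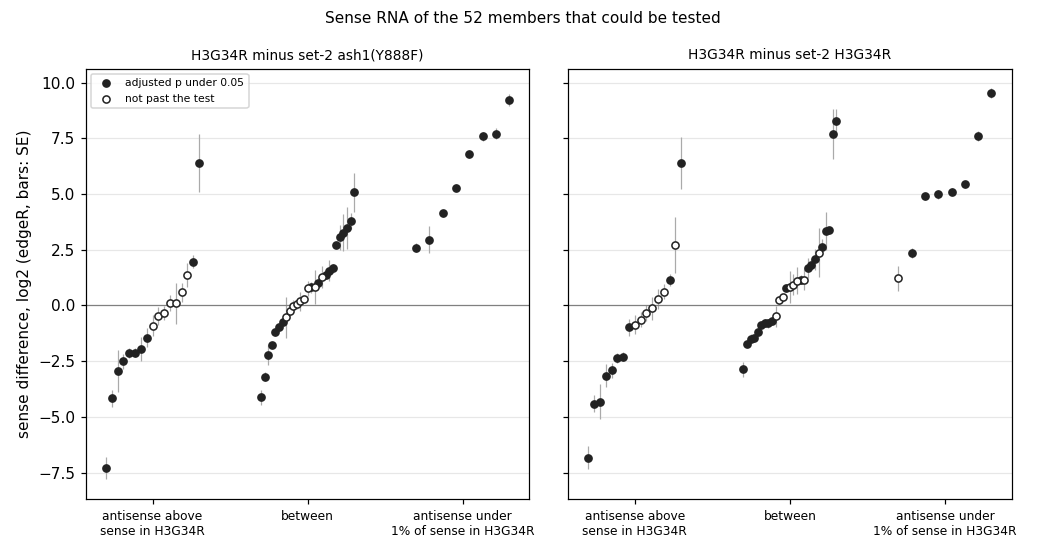
Sense difference (log2, edgeR, bars are SE) of the 52 members tested, H3G34R minus set-2 ash1(Y888F) on the left and H3G34R minus set-2 H3G34R on the right, grouped by the ratio of antisense to sense reads in H3G34R. Filled points had an adjusted p under 0.05. Members with more antisense than sense (17 tested) have medians of -0.90 and -0.86 and those with antisense under 1% of sense have medians of 6.03 and 5.04. The grouping uses the H3G34R sense counts, so the offset between columns follows partly from the grouping.

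Between these extremes lay 27 members with antisense reads from 1% of sense upward that did not exceed sense in both H3G34R libraries. Of these, 11 rose, 7 fell and 9 did not pass on the sense strand against set-2 ash1(Y888F), and 10 rose, 9 fell and 8 did not pass against set-2 H3G34R. The share that fell, 25.9% and 33.3%, was near the 26.3% and 30.7% of all genes, and the share that rose was 40.7% and 37%, beside 25.5% and 31.1% of all genes. NCU07053 had 12.3 and 10.8 antisense CPM in H3G34R, 1.78 and 1.86 in set-2 ash1(Y888F) and 0.425 and 0.696 in set-2 H3G34R. The sense strand held 7.65 and 11.8 CPM in H3G34R, 102 and 177 in set-2 ash1(Y888F) and 79.9 and 57.9 in set-2 H3G34R. The differences were -4.12 (SE 0.349, edgeR adjusted p = 2.41e-04) and -2.87 (SE 0.340, adjusted p = 5.78e-04).

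NCU07814 had 9.88 and 12.3 antisense CPM in H3G34R, 2.14 and 2.39 in set-2 ash1(Y888F) and 0.956 and 0.464 in set-2 H3G34R. In sense reads it had 39.4 and 43.9 CPM in H3G34R, 123 and 114 in set-2 ash1(Y888F) and 129 and 135 in set-2 H3G34R, with differences of -1.80 (SE 0.122) and -1.71 (SE 0.121), both past the test. NCU04641 had 10.5 and 7.22 sense CPM in H3G34R, 66.7 and 65.4 in set-2 ash1(Y888F) and 26.0 and 21.9 in set-2 H3G34R, with differences of -3.19 and -1.49. At both genes the H3G34R libraries were the lowest on the sense strand and the highest on the antisense strand.

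The member nudf-1 is named for the Aspergillus gene nudF, whose product works with dynein in moving nuclei. It had 5.95 and 7.22 antisense CPM in H3G34R, 1.90 and 1.33 in set-2 ash1(Y888F) and 1.06 and 2.32 in set-2 H3G34R. Its sense level was 28.3 and 25.1 CPM in H3G34R, 56.4 and 42.6 in set-2 ash1(Y888F) and 48.3 and 41.4 in set-2 H3G34R. Sense RNA was lower in H3G34R, with differences of -1.18 (SE 0.179, edgeR adjusted p = 0.00207) against set-2 ash1(Y888F) and -0.80 (SE 0.178, adjusted p = 0.00736) against set-2 H3G34R. Without N5248 or without N6777 library 1 the call against set-2 H3G34R was lost, with edgeR adjusted p = 0.0527 and 0.0588.

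Other members rose on both strands. NCU07752 had 2.55 and 1.83 antisense CPM in H3G34R against 0 to 0.133 in the other 4 libraries. On the sense strand it had 83.1 and 67 CPM in H3G34R, 6.29 and 2.53 in set-2 ash1(Y888F) and 0.319 and 0.116 in set-2 H3G34R, with differences of 3.77 (SE 0.364) and 8.26 (SE 0.543). NCU06170 had 4.25 and 5.19 antisense CPM in H3G34R, 0.831 and 1.33 in set-2 ash1(Y888F) and 0.425 and 0.348 in set-2 H3G34R. Sense RNA stood at 188 and 178 CPM in H3G34R, 20.5 and 24.9 in set-2 ash1(Y888F) and 18.3 and 15.1 in set-2 H3G34R, with differences of 2.72 (SE 0.138) and 3.40 (SE 0.142). All 4 differences passed the test, with edgeR adjusted p of at most 3.78e-04.

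NCU07049 had 7.65 and 7.83 antisense CPM in H3G34R, 0.831 and 0.665 in set-2 ash1(Y888F) and 0.106 and 0.348 in set-2 H3G34R, an excess of 9.21-fold over the highest. The sense strand held 128 and 126 CPM in H3G34R, 24.8 and 41.1 in set-2 ash1(Y888F) and 52.5 and 56.9 in set-2 H3G34R, with differences of 1.66 (SE 0.213) and 1.16 (SE 0.207). The H3G34R libraries were thus the highest on both strands, by a larger factor on the antisense strand. NCU06823 had 7.43 and 9.36 antisense CPM in H3G34R against 0.212 to 0.593 in the other 4 libraries. In sense reads it had 8.82 and 8.04 CPM in H3G34R, 0.237 and 1.46 in set-2 ash1(Y888F) and 3.08 and 1.97 in set-2 H3G34R. It rose by 3.05 against set-2 ash1(Y888F) and by 1.67 against set-2 H3G34R, where the call was lost without any of the H3G34R or set-2 H3G34R libraries (edgeR adjusted p 0.0517 to 0.108).

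Some members with more antisense than sense also rose on the sense strand. NCU02339 had 13.3 and 13.5 antisense CPM in H3G34R, 5.70 and 5.98 in set-2 ash1(Y888F) and 5.63 and 3.71 in set-2 H3G34R. Its sense level was 5.63 and 6.41 CPM in H3G34R, 1.31 and 1.20 in set-2 ash1(Y888F) and 2.76 and 2.44 in set-2 H3G34R, with differences of 1.96 (SE 0.301, edgeR adjusted p = 0.00219) and 1.15 (SE 0.262, adjusted p = 0.00815). The second was lost without N5248 or N6777 library 2, with edgeR adjusted p = 0.0588 and 0.0519. NCU05912 had 6.27 and 6.82 antisense CPM in H3G34R, no read in N6266 or N6267, and 0.425 and 0.116 in set-2 H3G34R. On the sense strand it had 1.38 and 1.12 CPM in H3G34R with no sense read in the other 4 libraries, at least 3.31-fold higher than in set-2 ash1(Y888F) and at least 3.75-fold higher than in set-2 H3G34R at a limit of 3 counts per library. Only 17 of the 32 could be tested, and the choice of the 32 favours few sense reads in H3G34R. Of the 17, 8 fell in each comparison (47.1%), where 26.3% and 30.7% of all genes fell. NCU02339 and NCU05912 were the 2 that rose in each (11.8%), where 25.5% and 31.1% of all genes rose. The count against set-2 ash1(Y888F) was 1 without N5247 or N5248, and the count against set-2 H3G34R was 1 without N5247 or N6777 library 2 and 0 without N5248.

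Several members with a large antisense excess had few sense reads or sense differences that did not pass. NCU08849 had 5.74 and 3.66 antisense CPM in H3G34R, 0.237 and 0 in set-2 ash1(Y888F) and 0 in both set-2 H3G34R libraries, an excess of 15.4-fold, with at most 0.356 sense CPM in any library. NCU10889 had 2.44 and 2.85 antisense CPM in H3G34R, 0 in both set-2 ash1(Y888F) libraries and 0 and 0.232 in set-2 H3G34R. Its sense differences were 0.84 (SE 0.752, edgeR adjusted p = 0.379) and 0.83 (SE 0.707, adjusted p = 0.336). NCU03470, next to the member NCU03471, had 1.70 and 1.83 antisense CPM in H3G34R against 0 to 0.116 in the other 4 libraries, with at most 0.305 sense CPM anywhere. In NCU07801, with 1.81 and 1.73 antisense CPM in H3G34R against 0 to 0.119 elsewhere, sense RNA rose in both comparisons, but each call was lost without N5248, and also without N6266 or N6267 in the first comparison and without N6777 library 2 in the second. NCU05602 had 6.80 and 5.49 antisense CPM in H3G34R against 0.665 to 1.42 in the other 4 libraries. Sense RNA stood at 34.8 and 25.8 CPM in H3G34R against 20.6 to 26.8 in the others, and the differences of 0.06 (SE 0.206) and 0.23 (SE 0.204) did not pass.

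NCU09640 differed in direction between the comparisons. It had 2.76 and 3.97 antisense CPM in H3G34R against 0.665 to 0.956 in the other 4 libraries. The sense strand held 47.5 and 35.7 CPM in H3G34R, 13.4 and 20.1 in set-2 ash1(Y888F) and 70.3 and 69.0 in set-2 H3G34R. It rose by 1.03 (SE 0.212, edgeR adjusted p = 0.00715) against set-2 ash1(Y888F), a call lost without N5247 (adjusted p = 0.0508). Against set-2 H3G34R its difference was -0.80 (SE 0.199, edgeR adjusted p = 0.0119), a call lost without N5248 or either set-2 H3G34R library.

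The genes on either side of the members were examined, since reads from a neighbour that run past its end can be counted on the strand opposite to a member. The reference table orders the genes but gives no strand, so both adjacent genes were taken and whether they point toward the member was not tested. Against set-2 ash1(Y888F), 38 of 67 members (56.7%) had at least 1 adjacent gene whose sense RNA rose, where 39.5% of the 7285 eligible genes with a neighbour did. For adjacent genes that fell, the shares were 25.4% of members (17) and 38.6% of eligible genes. Against set-2 H3G34R, 39 members (58.2%) had an adjacent gene that rose, against 45.9% of eligible genes, and 28 (41.8%) had one that fell, against 44.7%.

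Adjacent genes with a called rise of at least 4-fold were found for 18 members (26.9%) against set-2 ash1(Y888F), where 12% of eligible genes had one. Against set-2 H3G34R they were found for 19 members (28.4%), where 12.5% of eligible genes had one. The comparisons share the H3G34R libraries. Among the 32 members with more antisense than sense reads the counts were 4 (12.5%) and 5 (15.6%), close to the shares of all eligible genes.

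NCU05603, next to NCU05602, had 45.6 and 35.0 sense CPM in H3G34R, 2.37 and 3.06 in set-2 ash1(Y888F) and 3.51 and 1.97 in set-2 H3G34R, with differences of 3.60 and 3.81. NCU01373, next to NCU01371, had 52 and 42.6 sense CPM in H3G34R, 4.63 and 5.85 in set-2 ash1(Y888F) and 4.78 and 5.80 in set-2 H3G34R, with differences of 2.89 and 3.10. NCU03190, next to NCU03191, had 17.1 and 17.7 sense CPM in H3G34R, 1.66 and 1.46 in set-2 ash1(Y888F) and 2.34 and 2.44 in set-2 H3G34R, with differences of 3.17 and 2.81. In each of these pairs the H3G34R libraries were the highest at the neighbour's sense strand as at the member's antisense strand. The pairs are examples of neighbours that rose, and other neighbours fell. Beside NCU05859, NCU05858 had 2.76 and 1.63 sense CPM in H3G34R. It had 25.3 and 7.45 CPM in set-2 ash1(Y888F) and 18.0 and 62.7 in set-2 H3G34R, with differences of -3.20 and -4.26. Neighbours that fell lay beside 17 and 28 members in the 2 comparisons, and neighbours that rose beside 38 and 39.

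NCU05469 lay between 2 genes with some of the largest changes. NCU05467 had 455 and 462 sense CPM in H3G34R, 1.66 and 1.33 in set-2 ash1(Y888F) and 7.75 and 9.51 in set-2 H3G34R. NCU05470 had 116 and 122 sense CPM in H3G34R, 0.356 and 0.266 in set-2 ash1(Y888F) and 1.81 and 1.86 in set-2 H3G34R. NCU05469 itself had 276 and 270 sense CPM in H3G34R, 1.31 and 0.798 in set-2 ash1(Y888F) and 9.77 and 6.84 in set-2 H3G34R, so 3 adjacent genes rose together. NCU06591, next to NCU06590, likewise had 182 and 155 sense CPM in H3G34R, 3.56 and 4.39 in set-2 ash1(Y888F) and 2.76 and 2.32 in set-2 H3G34R.

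NCU10603, NCU05563 and NCU06625, the members with the most antisense reads, had no adjacent gene called at least 4-fold higher. Beside NCU05563, the metallothionein gene cmt had 1224 and 1550 sense CPM in H3G34R, 1887 and 1601 in set-2 ash1(Y888F) and 1124 and 1011 in set-2 H3G34R. On its other side, the peroxin gene pex31 had 73.3 and 73.4 CPM in H3G34R, 55.7 and 60.6 in set-2 ash1(Y888F) and 99.3 and 90.2 in set-2 H3G34R. Neither was highest in the H3G34R libraries. Beside NCU10603, tob37, for a subunit of the complex that inserts proteins into the outer mitochondrial membrane, had 116 and 111 CPM in H3G34R, 44.6 and 42.2 in set-2 ash1(Y888F) and 49.4 and 41.8 in set-2 H3G34R. It rose by 1.09 and 1.26 on the log2 scale, with edgeR adjusted p = 5.52e-04 and 2.26e-04. Beside NCU06625, NCU06624 had 33.5 and 31.0 CPM in H3G34R, 29.1 and 35.9 in set-2 ash1(Y888F) and 62.3 and 50.6 in set-2 H3G34R, and the kinase gene stk-45 rose by 0.43 against set-2 ash1(Y888F) but did not pass against set-2 H3G34R.

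The level of these genes in wild type is known here only through the authors' deposited tables, which compare each genotype with wild type. Which strand those tables count is not stated. For NCU05563 the authors' deposited table for H3G34R gives a mean signal of 1628, while its H3G34R libraries held 16 and 23 sense and 2429 and 3131 antisense reads. For NCU10603 it gives 7123, beside 12 and 4 sense and 4536 and 3870 antisense reads, so the deposited values include antisense reads. For NCU00425 the authors' deposited table for H3G34R gives 4400, beside 7583 and 8536 sense and 17 and 20 antisense reads. Sense reads are therefore included too. For members with nearly all H3G34R reads on the antisense strand, the H3G34R side of the deposited fold change is thus mainly antisense RNA. The strand balance in wild type is not known here. A fold change over wild type may therefore set antisense reads against sense reads. For members with many reads on both strands the deposited values mix sense and antisense RNA.

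In the authors' deposited tables, 20 of the 32 members with more antisense than sense (62.5%) were at least 2-fold higher in H3G34R than in wild type, where 24.6% of all genes were. For set-2 ash1(Y888F) over wild type, 8 of 31 with a value (25.8%) were, where 12.3% of all genes were. For set-2 H3G34R over wild type, 7 of 32 (21.9%) were, where 13.6% of all genes were. Over all members the authors' deposited tables give 43 of 67 (64.2%), 24 of 66 with a value (36.4%) and 19 of 67 (28.4%). The shares were thus not higher among the 32 than over all members. The members were chosen for high antisense reads in the H3G34R libraries that enter the first table, so its share is a description. Among the 13 with antisense above sense in all 6 libraries, the counts in the authors' deposited tables were 9, 4 and 2.

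NCU05563 had deposited log2 fold changes over wild type of 3.85 for H3G34R, 0.26 for set-2 ash1(Y888F), with 0.03 for set-2 H3G34R, in the authors' deposited tables. For NCU07054 they were 5.66, 1.24 and 2.88, and for NCU02339 6.07, 3.74 and 4.26 in the same tables. NCU16350 was at 3.55, 0.70 and -1.05 in the authors' deposited tables. NCU10603, the member with the most antisense reads in H3G34R, was below wild type in each of the authors' deposited tables, at -1.07, -1.52 and -3.44. NCU01275, mostly antisense in H3G34R and mostly sense in both set-2 genotypes, was at -2.01, 0.10 and -0.94 in the same tables. The tables were normalised separately and nothing shows that they share a wild-type level. At NCU10603 the antisense level was 87.7 and 152 CPM in set-2 ash1(Y888F) and 44.6 and 104 CPM in set-2 H3G34R, yet the mean signals in the authors' deposited tables are 1874 and 5185. The fold changes are therefore given table by table, and no order of the genotypes is read from them.

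**Figure D4:**
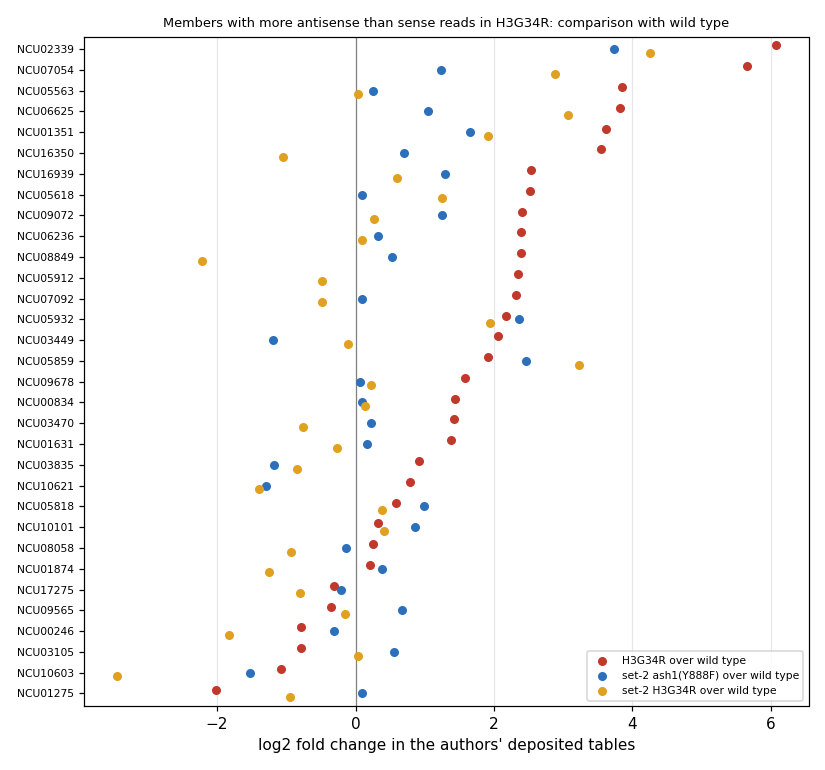
Log2 fold change over wild type from the authors' deposited tables for the 32 members with more antisense than sense reads in both H3G34R libraries, one per line, with a point for each genotype. A vertical line marks no change. At least 2-fold higher than wild type were 20 for H3G34R, 8 for set-2 ash1(Y888F), with 7 for set-2 H3G34R, and NCU10603 lies below wild type in all 3 tables.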

How the data were processed

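For each of the 6 libraries the authors deposited raw read counts per gene, which the submitters' processing notes credit to STAR 2.6.0. The genome build is not given in the sources used here, nor is the annotation. Each count table has 1 column for both strands and 1 for each strand. Since the labels' protocols name a stranded kit, the strand with more reads was taken as sense. The 4 lines of unassigned reads were left out. The authors' deposited comparisons with wild type carry no header, and the submitters' processing notes name DESeq2 1.18.1. Their columns were identified from the values as the authors' mean signal (counts divided by size factors), log2 fold change, standard error, Wald score, p-value and adjusted p-value.

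Sense counts were tested across all genes with edgeR 4.0.16 (limma 3.58.1, R 4.3.3): glmQLFit and glmQLFTest, TMM, filterByExpr by genotype, all 6 libraries in 1 fit, two-sided, Benjamini-Hochberg adjustment at 0.05. DESeq2 1.42.0 was an alternative. Other steps ran in Python 3.11.15 with scipy 1.17.1, pandas 2.3.3, numpy 2.4.6 and matplotlib 3.10.9. The fit was also run on simulated counts with the same spread for every gene and genotype. The real libraries differed in spread, so that run does not check the p-values given here. Each library counted as 1 replicate. H3G34R and set-2 ash1(Y888F) have a library from each of 2 strains. Both set-2 H3G34R libraries come from 1 strain and may be technical repeats, and p-values measure no more than this spread. Within each genotype, libraries differed by more than read sampling.

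The members and gene lists were chosen with earlier results of these data known. Genes named are those with the highest antisense level, excess or sense change, those at the thresholds, those with a symbol, and neighbours. NCU09640, NCU05602, NCU07814 and NCU09635 were singled out after their values were seen. Tests of convergent neighbours were replaced by adjacent genes on both sides, because the reference gene order (assembly NC12, which held all 67 members, 3 with a symbol) has no strand. No sequences were used here. Reads carry no molecular identifiers, so limits and intervals cover counting error only.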

Additional observations from a re-analysis of the deposited data

How the results depend on the processing

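The number of members depended on the limits of the rule. A minimum excess of 3-fold left 37 and a minimum of 3 CPM left 32. Leaving out 1 library gave 74 to 117, the most without N5247 (117) and without N5248 (103). With TMM-scaled antisense levels it was 58, and with the other alternatives run 89 to 99. Leaving out 1 library moved the members called higher to between 16 and 21 against set-2 ash1(Y888F) and between 14 and 23 against set-2 H3G34R, and those called lower to between 11 and 16 and between 13 and 16. Without the members whose antisense was under 1% of sense, an alternative chosen after seeing the data, 13 and 12 were called higher. Among members with more antisense than sense, the 2 called higher against set-2 ash1(Y888F) became 1 with only the 4 libraries compared and 1 to 2 with 1 library left out, and the 8 called lower became 5 at a minimum of 1.5-fold and 5 to 8 with 1 library left out (5 without N5247 or N6266). Against set-2 H3G34R the 2 called higher became 0 to 2 with 1 library left out. The cause was not tested. Of 36 member calls in each comparison, 9 and 9 were lost when some library was left out, 6 and 5 at a minimum of 1.5-fold and 1 and 1 with DESeq2, and 0 reversed. The counts of members with an adjacent gene at least 4-fold higher stayed within 1.5 times in all alternatives run. No paired analysis was possible because no replicate number links libraries of different genotypes. Settings for convergent neighbours were not run, since the strand of neighbours was not known. Low depth on the sense strand left 15 members untested.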
